A study of Mus musculus with 8 samples.

Results

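IAPEy-int, IAPEY3-int, IAP-d-int and IAPLTR3-int are the internal regions of 4 families of intracisternal A particle (IAP) retrotransposons other than the abundant family IAPEz-int. Members were all listed elements with these family names that do not lie on random scaffolds, the sequence not placed on a chromosome. They numbered 156 of 17857 listed elements, or of 17079 off random scaffolds, with 16 copies of IAPEy-int, 73 of IAPEY3-int, 44 of IAP-d-int and 23 of IAPLTR3-int. Mouse embryonic stem cells were sequenced for their RNA, with 8 groups and 1 library per group. The line J1 served as wild type, and TKO cells lack 3 DNA methyltransferases (DNMTs). Each line was used with DAXX intact and with DAXX knocked out. All 4 resulting lines were grown in regular ES cell medium and, separately, for 72 hours in the same medium with PD0325901 (1 µM, against MEK), CHIR99021 (3 µM, against GSK3b) and vitamin C (100 µg/ml). Library names give the line, the DAXX status and the medium, and "2i" stands for the inhibitors together with vitamin C. Where 4 values of a line follow each other, their order is regular medium, 2i, DAXX-knockout in regular medium and DAXX-knockout in 2i.

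IAP elements are retrotransposons of the ERVK class, built like a retrovirus, with an internal coding region between 2 long terminal repeats. In mouse embryonic stem cells they are kept silent by DNA methylation and by repressive chromatin, and DAXX, a chaperone of the histone variant H3.3 that works with ATRX, takes part in that repression. Inhibition of MEK and GSK3 together with vitamin C, a cofactor of the TET enzymes, is known to lower DNA methylation in these cells.

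No group had a replicate, and no source used here says whether a line is 1 clone, so the genotype and the line cannot be told apart. Comparisons for a factor used the 4 pairs of libraries in which nothing else differed. The 4 pairs of a factor share no library, but they come from only 4 lines, and the same 8 libraries serve every factor. The p-values come from a fit of DNMT status, DAXX status and medium to all 8 libraries with 4 residual degrees of freedom, so they measure the spread of single libraries around an additive model. Library totals, recovered from the counts and RPKM, were 67383513 to 99097868 reads. Between 8.28% and 19.3% of those reads lay in the listed repeats. The levels of Daxx, of the Dnmt genes and of stem cell markers were not examined, because the assembled loci carry no gene names. As these are bulk samples, fewer expressing cells and less RNA per cell cannot be told apart.

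Most copies had few or no reads. IAPEy-int had 143 listed elements, of which 127 lay on random sequence of the Y chromosome and held 0 reads. Of the 156 members, those with 0 reads in all 8 libraries were 1 copy of IAPEy-int, 7 of IAPEY3-int, 14 of IAP-d-int and 2 of IAPLTR3-int. Copies with at least 100 reads over all libraries numbered 8, 17, 7 and 7, in the same order. The table lists no element shorter than 5001 bp, so short fragments and solitary long terminal repeats of these families are not counted. Median lengths were 7504 bp for IAPEy-int, 7322 bp for IAPEY3-int, 5577.5 bp for IAP-d-int and 6784 bp for IAPLTR3-int. IAP-d-int had 12 copies on the X chromosome, IAPEY3-int 5 on X and 1 on Y, and IAPLTR3-int 2 on each.

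Together the members took a small share of IAP reads. Over all libraries IAPEz-int held 98.9% of reads on IAP elements, IAPEY3-int 0.932%, IAP-d-int 0.0690%, IAPEy-int 0.0510% and IAPLTR3-int 0.0419%. Per length, the median level over the 8 libraries was 0.124 RPKM for IAPEY3-int, 25th of the 44 repeat families tested. The other 3 ranked 40th, 42nd and 43rd, at 0.0282 RPKM for IAPEy-int, 0.0271 for IAP-d-int and 0.0181 for IAPLTR3-int. IAPEz-int, at 0.95 RPKM, ranked 11th. The ranges over libraries of the 3 low families overlapped, so their order was not separated by the spread.

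**Figure D1:**
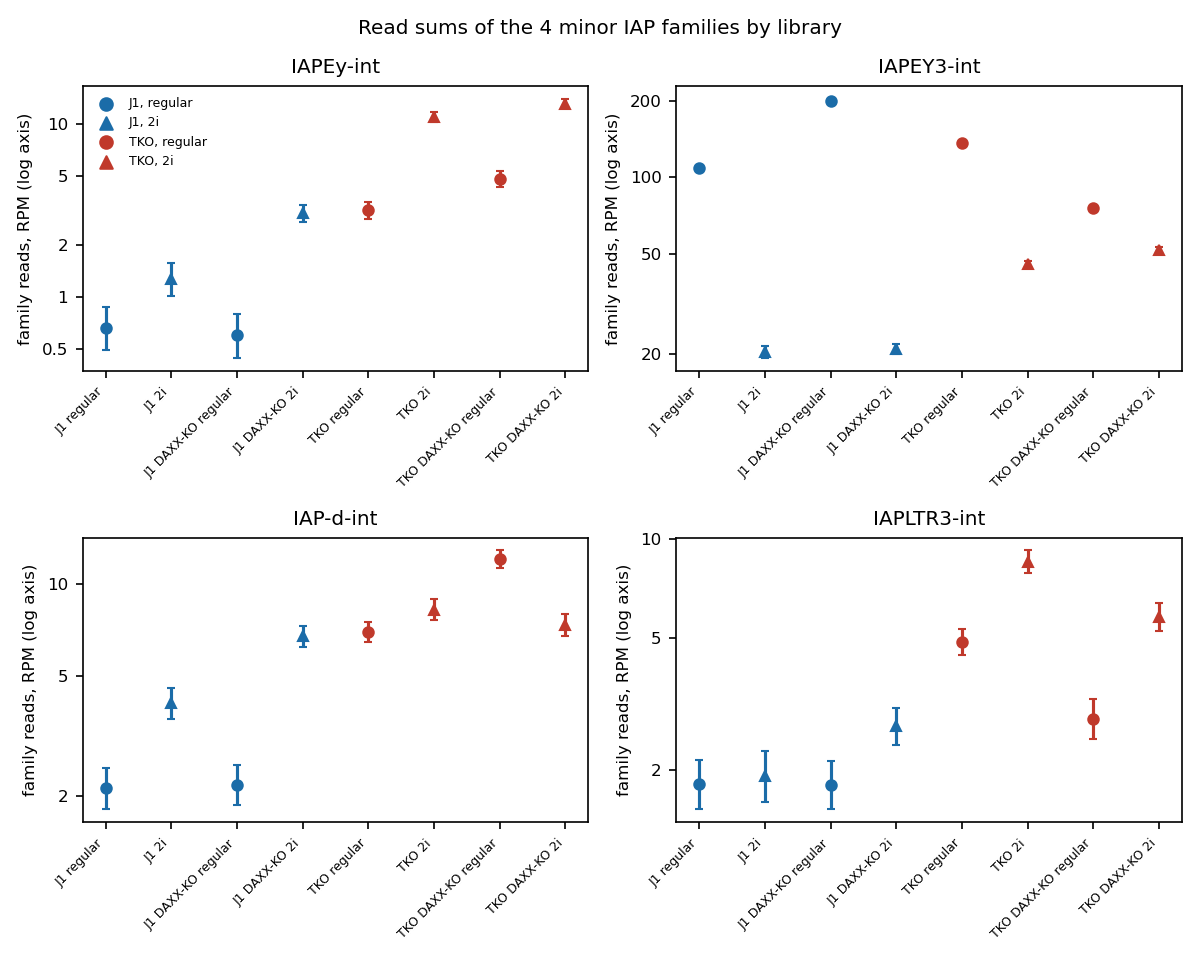
Read sums of each family in each library, in RPM on a log axis, with exact 95% Poisson intervals that cover counting error only. IAPEy-int, IAP-d-int and IAPLTR3-int were highest in TKO libraries, and IAPEY3-int was highest in the J1 DAXX-knockout regular library at 200.4 RPM.

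Of the 4 families, IAPEy-int had the largest mean ratio of TKO to J1. Its reads summed to 0.664 RPM (reads per 1000000 reads of the library) in regular medium and 1.28 in 2i for J1 with DAXX intact, and to 0.606 and 3.05 for J1 without DAXX. For TKO they summed to 3.18 RPM in regular medium and 11 in 2i with DAXX intact, and to 4.85 and 13.1 without DAXX. All 4 TKO libraries lay above all 4 J1 libraries, but the J1 DAXX-knockout 2i and TKO regular libraries had overlapping 95% counting intervals. Between 48 and 1000 reads lie behind each sum.

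IAPEy-int rose in TKO cells in 4 of 4 pairs, by 4.30-fold to 8.63-fold, a mean log2 ratio of 2.62 ± 0.51 (SD, n = 4 pairs). The fitted change was log2 2.58 (edgeR quasi-likelihood, Benjamini-Hochberg adjusted p = 0.000697), and it passed the threshold of 0.05 in 15 of 15 alternatives. Limma gave log2 2.50 with a standard error of 0.35. Families called higher in TKO were 11.4% of the 44 tested, and IAPEy-int and IAPLTR3-int were 2 of these 5.

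IAPEy-int also rose with 2i in 4 of 4 pairs, by 1.92-fold to 5.03-fold (mean log2 1.63 ± 0.59, SD, n = 4 pairs). The fitted change was log2 1.64 (edgeR adjusted p = 0.00992), and families called higher with 2i were 4.55% of those tested. The call was lost without the J1 DAXX-knockout regular library, at log2 1.5, and without the TKO 2i library, at log2 1.56. The ratios of DAXX knockout to intact ran from 0.913 to 2.39, and that change did not pass (log2 0.51, edgeR adjusted p = 0.646).

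Reads of IAPEy-int were counted at several copies. The 3 with a mean of at least 0.1 RPKM held 68.1% of the reads. The copy chr18:7318992-7326510 had 12, 22, 16 and 67 reads in J1 and 70, 192, 124 and 298 in TKO. The copy chr14:45288865-45296400 had 7, 11, 2 and 72 reads in J1 and 34, 155, 77 and 274 in TKO, and chr7:6569393-6575436 had 25, 6, 15 and 65 in J1 and 119, 196, 75 and 78 in TKO. Per length and depth, every TKO library of the chr7 copy lay above every J1 library. For the chr18 and chr14 copies the J1 DAXX-knockout 2i library, at 0.1 RPKM each, lay above TKO regular, at 0.09 and 0.05 RPKM.

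In the test of 11322 single elements, the 3 leading IAPEy-int copies were called higher in TKO cells. Their J1 libraries averaged 0.0475 RPKM on chr18, 0.0325 on chr14 and 0.0525 on chr7, so they passed the required mean of 0.1 RPKM only through the TKO libraries and their number is no support. The changes were log2 2.66 on chr18 (edgeR adjusted p = 0.000158), 2.96 on chr14 (edgeR adjusted p = 5.92e-05) and 2.12 on chr7 (edgeR adjusted p = 0.0215). Only 0.583% of all elements tested were called higher in TKO. The chr14 copy was called higher with 2i as well (log2 2.35, edgeR adjusted p = 0.00569), against 0.495% of all elements. Its regular-medium libraries averaged 0.05 RPKM and its 2i libraries 0.22. It thus reached the required mean only through 2i, and this call is no support either. The chr7 copy lost its call without any 1 of 5 libraries (J1 2i, TKO 2i, or the regular libraries of J1, J1 DAXX-knockout and TKO DAXX-knockout) and under TMM, median-ratio and L1 scaling, and had an adjusted p between 1.78e-05 and 1 over 13 alternatives. The chr14 copy lost its TKO call without J1 DAXX-knockout regular and its 2i call without that library or TKO 2i and under TMM, with adjusted p of up to 0.783 and 0.581 over 12 alternatives. None of these copies was called by limma on log2(RPKM + 0.1), whose pseudocount is close to their levels.

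The next IAPEy-int copy by level, chr15:97456403-97463926, had 0, 9, 0 and 23 reads in J1 and 25, 55, 16 and 63 in TKO and was too low to be tested. It was named after its values were seen.

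The other 13 IAPEy-int copies had ratios above 1 for both factors when summed. They held 0.0911, 0.698, 0.189 and 0.828 RPM in the J1 libraries and 0.928, 3.66, 1.14 and 4.59 in the TKO libraries. Their ratio of TKO to J1 was 5.25 to 10.2 and their ratio of 2i to regular medium 3.94 to 7.66. This split by level was made after the values were seen, so its ratios are a description.

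IAPLTR3-int was the other member called higher in TKO cells. In J1 cells with DAXX the sum was 1.81 RPM in regular medium, beside 1.91 in 2i, and in those without DAXX 1.80 and 2.71. TKO had 4.88 RPM in regular medium and 8.51 in 2i with DAXX intact, and 2.86 and 5.80 without DAXX. The groups did not overlap, but the counting intervals of J1 DAXX-knockout 2i and TKO DAXX-knockout regular did.

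IAPLTR3-int rose in TKO cells in 4 of 4 pairs, by 1.58-fold to 4.45-fold (mean log2 1.34 ± 0.63, SD, n = 4 pairs). The fitted change was log2 1.33 (edgeR adjusted p = 0.0337), and limma gave 1.30 with a standard error of 0.35. It passed in 7 of 15 alternatives. It was lost without the regular library of J1 (log2 1.34), of J1 DAXX-knockout (1.43) or of TKO (1.27), and without the 2i library of J1 (1.08) or of TKO (1.20). TMM (0.92), scaling to L1 reads (1.20) and limma on log2(RPM + 1) (1.03) also ended the call, with adjusted p between 0.000927 and 0.161 over the 15. With 2i it was higher in 4 of 4 pairs, by 1.06-fold to 2.03-fold, and this did not pass (log2 0.64, edgeR adjusted p = 0.381).

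A pair of copies on chromosome 17 led IAPLTR3-int. The copy chr17:21938375-21945159 held 30.4% of the family's reads, and chr17:22367701-22374490 held 24.1%. The first had 44, 36, 20 and 67 reads in the J1 libraries and 167, 191, 60 and 153 in TKO, and the second 42, 53, 44 and 62 in J1 and 99, 129, 53 and 103 in TKO. Both had a higher RPM in TKO in 4 of 4 pairs, yet neither passed the test over elements, which they entered only through their TKO libraries (log2 1.69 and 0.85, edgeR adjusted p = 0.148 and 1). The next copy by level, chr5:146769505-146776237, had 4, 3, 8 and 15 reads in J1 and 29, 51, 14 and 30 in TKO, and lay below the mean RPKM that the test required.

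IAP-d-int was higher in TKO cells without passing the test over families. The sums were 2.12 RPM in regular medium and 4.05 in 2i for J1 with DAXX intact, and 2.18 and 6.75 for J1 without DAXX. TKO with DAXX intact had 6.97 and 8.25 RPM in these media, and TKO without DAXX 12.1 and 7.35. All 4 TKO libraries lay above all 4 J1 libraries, and the counting intervals of the lowest TKO library and the highest J1 library overlapped.

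The TKO to J1 ratio of IAP-d-int was 3.29 in regular medium, 2.04 in 2i, 5.56 with DAXX knocked out in regular medium and 1.09 with DAXX knocked out in 2i. The mean log2 ratio was 1.34 ± 1.00 (SD, n = 4 pairs), with a fitted log2 of 1.34 (edgeR adjusted p = 0.0539). It passed in 4 of 15 alternatives, among them those without J1 DAXX-knockout 2i (log2 1.62) and without TKO DAXX-knockout 2i (1.66). IAP-d-int did not pass for 2i (log2 0.52, edgeR adjusted p = 0.752), with ratios from 0.606 to 3.09. TKO libraries lay wholly above J1 libraries in 18.2% of the families tested, and IAPEy-int, IAPLTR3-int and IAP-d-int were 3 of these 8.

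The 3 leading IAP-d-int copies, with 73.0% of its reads, differed from each other. The copy chr7:50490900-50496003 had 84, 153, 54 and 186 reads in J1 and 238, 228, 248 and 237 in TKO, and no factor passed for it (log2 1.11 for TKO, −0.04 for DAXX knockout, 0.69 for 2i). The copy chr9:59218300-59223373 had 14, 11, 86 and 243 reads in J1 and 204, 111, 273 and 120 in TKO. It was higher with DAXX knocked out in 4 of 4 pairs and rose in the fit (log2 1.87, edgeR adjusted p = 0.0189), while 6.7% of all elements were called higher with DAXX knocked out.

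The IAP-d-int copy chr11:61205941-61211060 was nearly silent in 3 J1 libraries. It had 1, 2, 0 and 60 reads in the J1 libraries and 8, 89, 158 and 106 in the TKO libraries. The floor of 3 reads corresponds to 0.0303 to 0.0445 RPM, so 3 of its 4 J1 values lie under it and fitted folds depend on the prior count. Its J1 libraries averaged 0.035 RPKM, so it reached the mean of 0.1 RPKM that the test required only through TKO. Its DAXX-intact libraries averaged 0.0675 RPKM, so for DAXX it reached that mean only through the knockout libraries. Its calls for these factors are therefore no support. It was called higher in TKO (log2 4.14, edgeR adjusted p = 7.76e-07), higher with DAXX knocked out (log2 3.04, edgeR adjusted p = 0.0108) and higher with 2i (log2 2.56, edgeR adjusted p = 0.0149). The pairs were higher in 4, 3 and 3 of 4, in the same order.

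These IAP-d-int calls depended on single libraries. The chr9 call for DAXX was lost without J1 2i, TKO 2i, or the regular library of J1, J1 DAXX-knockout or TKO DAXX-knockout, with adjusted p between 0.000186 and 0.418 over 13 alternatives. The chr11 copy lost its TKO call without TKO 2i and its DAXX call without J1 regular, J1 2i or J1 DAXX-knockout regular. Its 2i call was lost without J1 regular, J1 DAXX-knockout regular, J1 DAXX-knockout 2i, TKO regular or TKO 2i. Over 12 alternatives its highest adjusted p was 0.592 for TKO, 0.501 for DAXX and 0.974 for 2i, and limma on log2(RPKM + 0.1) called neither copy. TMM, median-ratio scaling and scaling to L1 reads also ended all 3 calls of the chr11 copy.

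**Figure D2:**
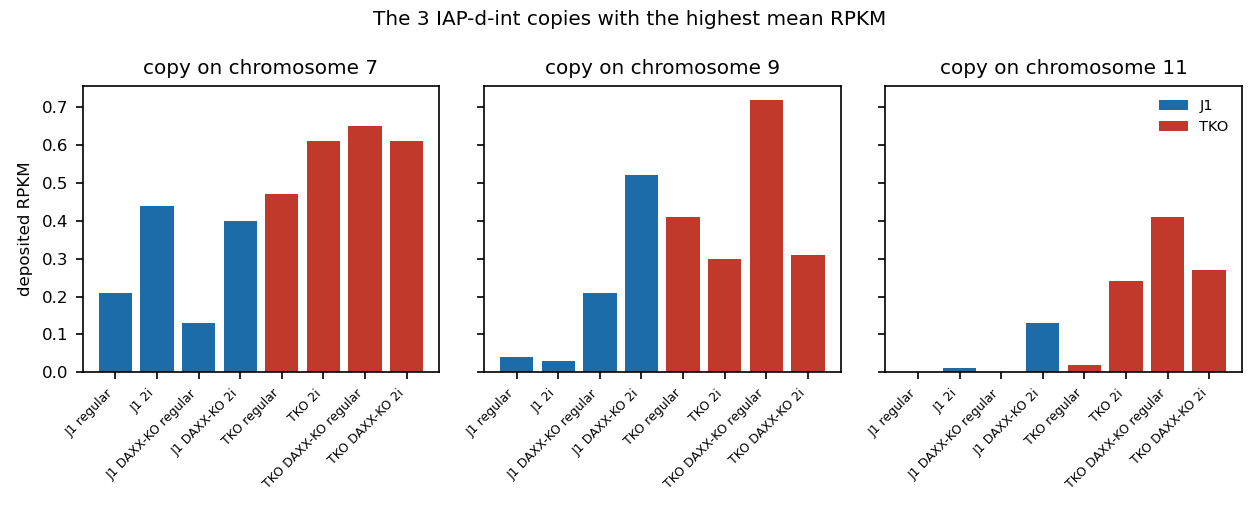
Deposited RPKM of the 3 leading IAP-d-int copies in each library, with J1 in blue and TKO in red. The chr7 copy reached 0.65 RPKM and was present in every library, whereas the chr11 copy was at 0.01 RPKM or below in 3 J1 libraries and reached 0.41 in TKO DAXX-knockout regular.

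Of the other IAP-d-int copies, 34 of 44 had fewer than 10 reads in all. The copy chr13:58475875-58481009 had 36, 51, 16 and 8 reads in J1 and 68, 36, 56 and 8 in TKO, so both DAXX-knockout 2i libraries were lowest. The copy chr14:32673383-32679892 had 0, 12, 1 and 44 in J1 and 15, 60, 79 and 46 in TKO. Both were named after their values were seen and lay below the level tested.

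IAPEY3-int, by reads the largest of the 4 families, fell with 2i. In regular medium J1 had 108 RPM with DAXX intact and 200.4 without DAXX, and TKO had 136 and 75.7. With 2i J1 had 20.5 and 21 RPM and TKO 45.3 and 51.5, again with DAXX intact and without. All 4 regular-medium libraries lay above all 4 libraries with 2i, which held for 4.55% of the families tested, IAPEY3-int being 1 of 2.

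IAPEY3-int was lower with 2i in 4 of 4 pairs. The ratio was 0.189 in J1 and 0.332 in TKO with DAXX intact, and 0.105 in J1 and 0.680 in TKO without DAXX (mean log2 −1.95 ± 1.15, SD, n = 4 pairs). The fitted log2 change was −2.02 (edgeR adjusted p = 0.0123), and limma gave −1.95 with a standard error of 0.44. Families called lower with 2i were 11.4% of those tested, 5 of 44, and under TMM and median-ratio scaling 0 families were called lower and under L1 scaling 1.

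The IAPEY3-int call did not hold under every setting. It passed in 10 of 15 alternatives and was lost without J1 DAXX-knockout regular (log2 −1.55) and without TKO 2i (log2 −2.2). It was also lost when libraries were scaled by TMM (−1.63), by the median ratio over families (−1.65) or to L1 reads (−1.57). Those scalings moved the median of all families from −0.21 to 0.05, 0.03 and 0.08. The direction stayed the same in each of them.

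For the other factors IAPEY3-int had no common direction. The ratio of TKO to J1 was 1.26 in regular medium, 2.21 in 2i, 0.378 with DAXX knocked out in regular medium and 2.45 with DAXX knocked out in 2i (fitted log2 0.37, edgeR adjusted p = 0.970). With TMM scaling that fitted value was −0.12. The ratios of DAXX knockout to intact were 1.85 in J1 regular, 1.03 in J1 2i, 0.555 in TKO regular and 1.14 in TKO 2i (fitted log2 0.20, edgeR adjusted p = 0.729).

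**Figure D3:**
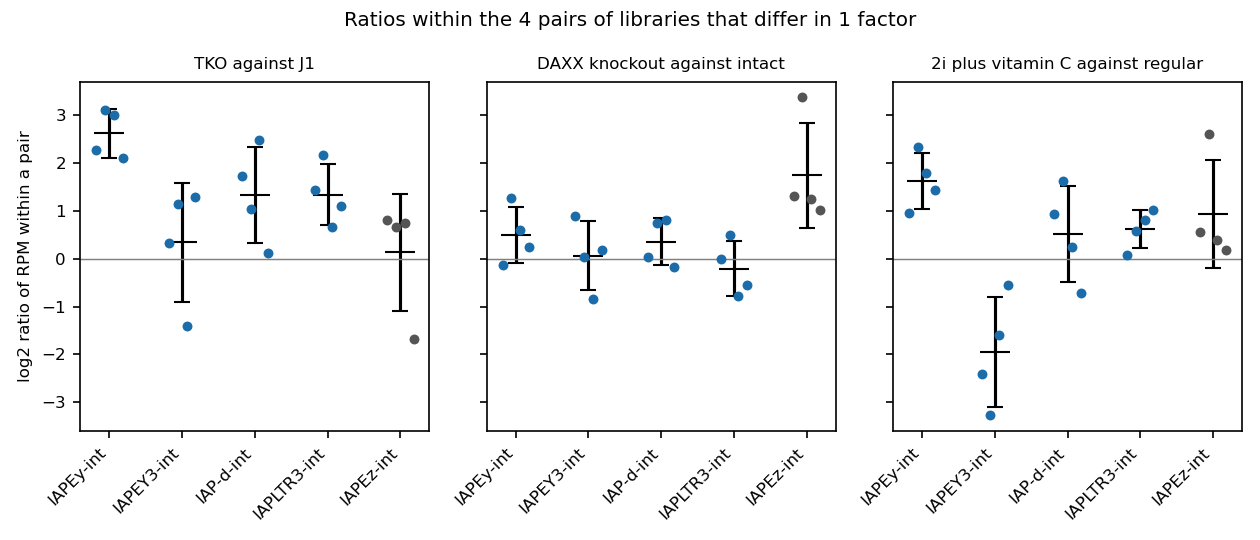
Log2 ratios of family RPM within the 4 pairs of libraries that differ in 1 factor, with the mean and SD as black bars, and IAPEz-int in grey. IAPEy-int lay above 0 in all pairs for TKO and for 2i, and IAPEY3-int lay below 0 in all pairs for 2i.

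IAPEY3-int reads were concentrated on chromosome 12. The copies chr12:19055759-19063072, chr12:24099405-24106729, chr12:22311582-22318906 and chr12:23774611-23781935 held 22.1%, 18%, 18% and 17.2% of the family's reads. The first had 1946 reads in J1 regular, 3594 in J1 DAXX-knockout regular, 3044 in TKO regular and 1251 in TKO DAXX-knockout regular. With 2i it had 202, 343, 704 and 857 in the same lines. In regular medium the 4 copies made up 76.5% to 82.9% of the family's reads, and with 2i 42.3% in J1 and 63.4% in TKO with DAXX intact, and 55.8% in J1 and 61.5% in TKO without DAXX.

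Counts at such copies cannot be taken as independent. The other 3 chromosome 12 copies are each 7324 bp long, and in every library their counts lay within 3.50% to 25.5% of each other (for example 1477 to 1578 reads in J1 regular). A pair of IAPEY3-int copies 6677 bp long, on chromosomes 16 and 19, had the same counts in all 8 libraries. Among 15059 elements with at least 10 reads it was the only such pair within a family, and pairs across families were not compared. How reads that match several copies were assigned is not given in the sources used here, so a read may be counted at more than 1 copy or at the wrong copy.

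The 5 IAPEY3-int copies called lower with 2i all lie on chromosome 12. The changes were log2 −2.30, −2.66, −2.55 and −2.73 for the 4 copies above (edgeR adjusted p = 0.00904, 0.00146, 0.00266 and 0.00116). The fifth, chr12:25042287-25049607, had 235, 436, 479 and 201 reads in regular medium and 52, 96, 142 and 183 with 2i, for the lines in the order of the leading copy (log2 −1.53, edgeR adjusted p = 0.0405). Elements called lower with 2i were 4.72% of the 11322 tested. All 5 calls were lost without J1 2i or J1 DAXX-knockout regular and under each of the 3 other scalings, and adjusted p reached 0.574 to 0.954. The call of chr12:22311582-22318906 was also lost without TKO 2i, and those of chr12:19055759-19063072 and chr12:25042287-25049607 without J1 regular, TKO regular or TKO 2i.

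The 8 IAPEY3-int copies tested on other chromosomes had fitted changes with 2i between log2 −1.46 and −0.84, and none passed. The copy chrX:72118285-72125018 had 282, 100, 375 and 115 reads in J1 and 404, 132, 139 and 234 in TKO, lower with 2i in 3 of 4 pairs (log2 −0.96, edgeR adjusted p = 0.538), and was named after its values were seen. The 13 copies tested had a median fitted change with 2i of log2 −1.25, beside −0.25 over all elements tested. The filter on the mean level favours copies that are high in some library, so these counts describe only the copies that passed it.

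Another scaling of the libraries changed the balance of calls over all elements. With 2i, 56 elements were called higher and 534 lower, 5.21% of those tested in all, but with median-ratio scaling 627 were higher and 66 lower. For TKO, 66 were higher and 3 lower, and with median-ratio scaling 63 were higher and 296 lower. For DAXX knockout the split hardly moved, at 759 higher and 7 lower against 910 and 11.

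**Figure D4:**
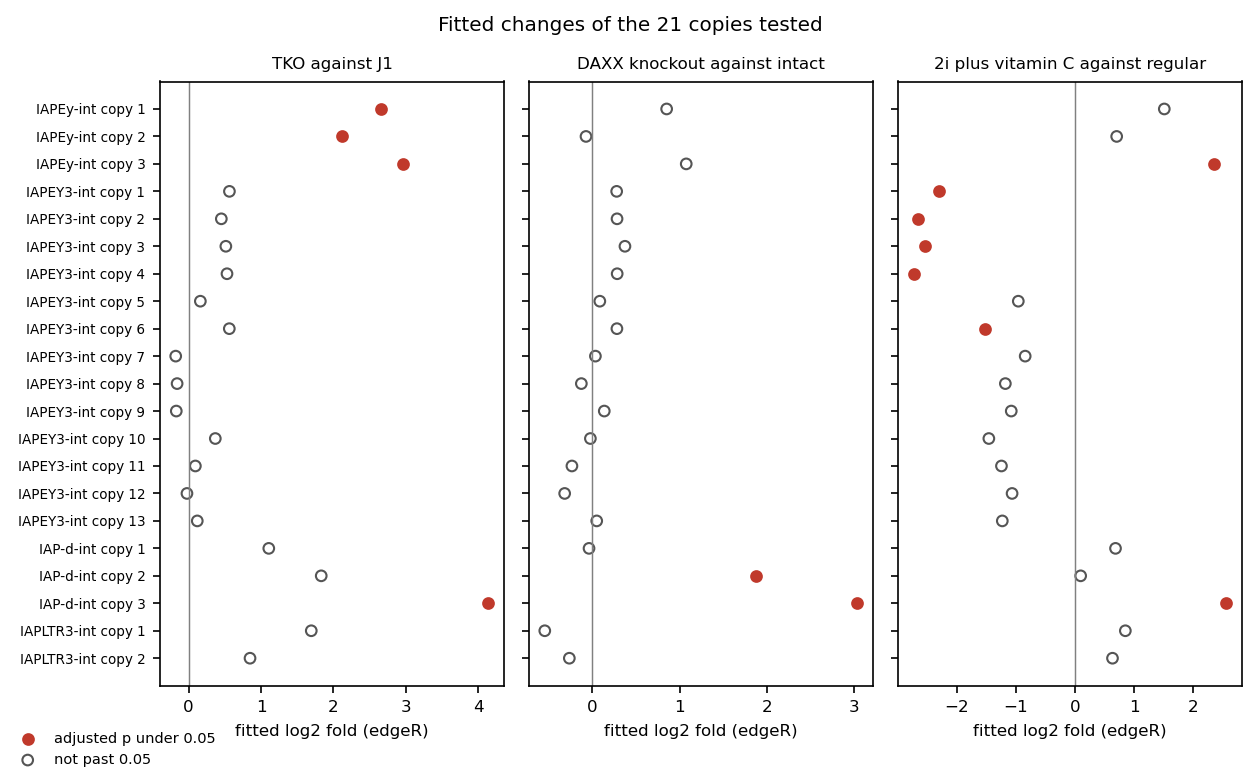
Fitted log2 changes of the 21 member copies tested, ordered by family and mean RPKM, for each factor. Filled red points passed an adjusted p of 0.05 in edgeR, namely 4 copies for TKO, 2 for DAXX knockout and 7 for 2i, of which 5 were lower. Of all elements tested, 0.583% were called higher in TKO and 6.7% higher with DAXX knocked out. With 2i, 0.495% were called higher and 4.72% lower. The 4 TKO copies reached the required mean only through TKO libraries, so their number is no support.

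Summed, the IAPEY3-int copies outside the leading set did not share its pattern. When the family was split at a mean of 0.1 RPKM, 13 copies held 96.7% of the reads and the other 60 held the rest. The 13 had 107, 18.5, 199.6 and 19.5 RPM in J1 and 132, 40.7, 72.5 and 46.4 in TKO. The 60 had 1.15, 1.93, 0.858 and 1.47 RPM in J1 and 4.18, 4.61, 3.23 and 5.08 in TKO.

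The ratio of 2i to regular medium was 0.0978 to 0.640 for the 13 copies and 1.10 to 1.71 for the 60. The ratio of TKO to J1 was 0.363 to 2.38 for the 13 and 2.39 to 3.77 for the 60. So the sum of the 60 copies was higher in TKO and with 2i in 4 of 4 pairs each. All 4 TKO libraries of that sum lay above all 4 J1 libraries, as they did for 18.2% of the families tested. The sum of the leading copies was lower with 2i in 4 of 4. Of the 60, the copies ranked 14th to 18th by level had 318, 265, 232, 173 and 97 reads over all libraries. None of the rest had more than 44, so the pattern of the sum need not hold for them. The split was made after the values were seen, so its ratios are a description.

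**Figure D5:**
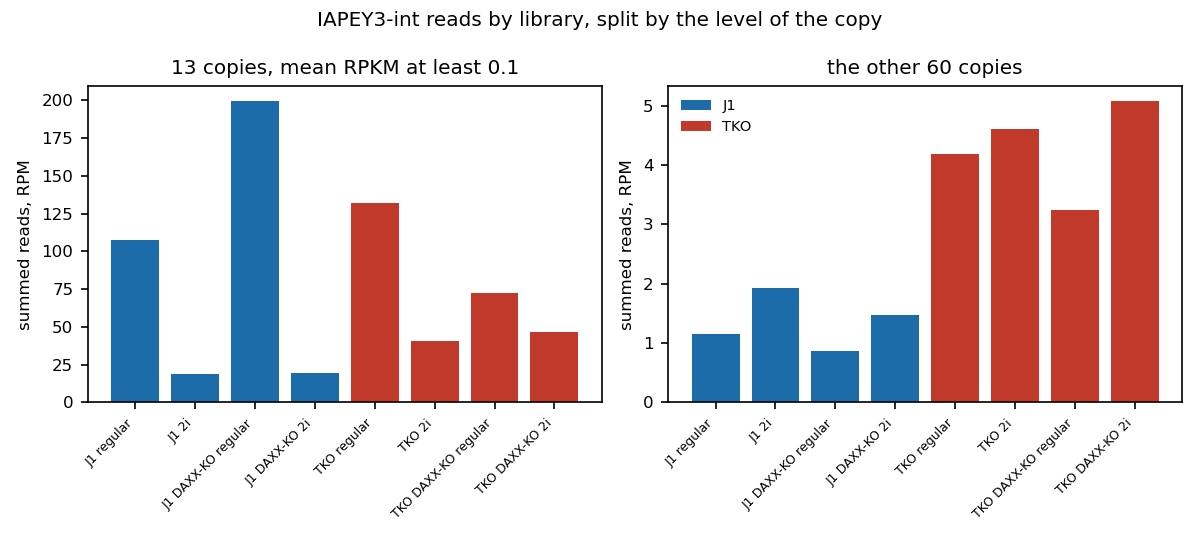
Summed RPM of the 13 IAPEY3-int copies with a mean of at least 0.1 RPKM and of the other 60, by library, with J1 in blue and TKO in red. The 13 were lower with 2i in each line, and the 60 were higher in TKO than in J1 in each condition, on an axis that ends near 5 RPM.

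Counts of single copies near the 0.1 RPKM level follow, first for copies just outside it. The copy chr12:19520673-19527951 had 15, 8, 7 and 22 reads in J1 and 47, 49, 30 and 87 in TKO. The copy chr13:62405470-62412854 had 8, 19, 6 and 15 in J1 and 107, 47, 28 and 88 in TKO. Just inside that level, chr15:77514627-77521940 had 44, 30, 127 and 28 in J1 and 115, 41, 57 and 34 in TKO. These copies were named after their values were seen. All 3 were higher in RPM in TKO in at least 3 of 4 pairs. At the low end, 12 IAPEY3-int copies between positions 20669833 and 23738442 of chromosome 7 had 24 to 40 reads each over all 8 libraries, and the copy on the Y chromosome had 2.

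DAXX status gave no call for any of the 4 families. The fitted changes were log2 0.51 for IAPEy-int, 0.46 for IAP-d-int, 0.20 for IAPEY3-int and −0.22 for IAPLTR3-int (edgeR adjusted p = 0.646, 0.646, 0.729 and 0.673), and 0 of them passed in any alternative. Of the 44 families 0 passed in edgeR, although 3 had an unadjusted p under 0.05 and DESeq2 called 1. DAXX-knockout libraries lay wholly above the intact ones in 2.27% of families, none of them a member. IAPLTR3-int was above 0 under TMM (log2 0.01), median-ratio (0.15) and L1 scaling (0.30), so its direction depends on the scaling. For comparison, IAPEz-int was higher with DAXX knocked out in 4 of 4 pairs, by 2.04-fold to 10.3-fold (log2 1.84, edgeR adjusted p = 0.0576), and no test of its difference from the minor families was made.

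The largest IAPEz-int level, 31233 RPM in J1 DAXX-knockout 2i, came from the same library in which IAPEy-int, IAP-d-int and IAPLTR3-int had their highest J1 values. Relative to J1 2i those 3 families were 2.39-fold, 1.67-fold and 1.42-fold higher in that library, IAPEY3-int was 1.03-fold higher and IAPEz-int 10.3-fold higher. Whether reads of IAPEz-int copies were counted at the minor families was not tested.

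Whether the effect of 1 factor changed with another was tested for each pair of factors. For the 4 families the 12 differences had adjusted p between 0.229 and 0.983 (edgeR, 3 residual degrees of freedom), and 0 had an unadjusted p under 0.05. Over all 44 families, 19 had an unadjusted edgeR p under 0.05 for DAXX by DNMT, with a median of log2 −1.20. For DNMT by medium and for DAXX by medium 0 did. The largest of the 12 in size was for IAPEY3-int, whose 2i effect in TKO minus that in J1 was log2 1.74 (edgeR adjusted p = 0.827). The DAXX effect on IAPEY3-int in TKO minus that in J1 was log2 −0.77 (edgeR adjusted p = 0.496). Without TKO DAXX-knockout 2i it was −1.84, beside a median of −0.97 over all families.

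Profiles over the 8 libraries were compared among the 44 families by Pearson's r of log2(RPM + 0.1). Points share library totals and, for related copies, possibly reads, and the r values are descriptions. IAPEy-int was most like MMERGLN-int, the internal region of a gammaretrovirus-like family (r = 0.968), then IAPLTR3-int (0.895) and IAP-d-int (0.858). IAPLTR3-int was most like MMERGLN-int (0.923), and IAP-d-int most like IAPEy-int.

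IAPEY3-int was most like ERVL-B4-int (r = 0.823), MERVL-int (0.814) and MERVL_2A-int (0.804), which are ERVL families. Of the 43 other families, IAPEz-int came last for it (r = −0.435). Its r with IAPEy-int was −0.332 and with IAP-d-int −0.357.

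Among 8 other or related ERVK families listed for comparison, IAPEz-int included, 6 had elements off random scaffolds under those names and were tested. In TKO 1 of the 6 was called higher, ETnERV3-int (log2 1.46, edgeR adjusted p = 0.0341), and none was called lower. With 2i 1 of 6 was called lower, MMERVK10C-int (log2 −1.85, edgeR adjusted p = 0.00992), and none higher. The median change of the 6 was log2 0.11 for TKO, 0.29 for DAXX knockout and −0.12 for 2i, beside 0.18, −0.32 and −0.21 over all 44 families.

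The authors' assembled transcript loci give a second view of single copies. Loci covered at least 50% of 8 member copies in some library, namely 1 of IAPEy-int, 3 of IAPEY3-int, 3 of IAP-d-int and 1 of IAPLTR3-int. Some of these loci are much longer than the copy. The IAPEY3-int copy chr7:28719090-28726419 lay in loci of 70864 and 73713 bp. The IAPEY3-int copy chr5:46207721-46214097 lay in a locus of 161640 bp. Any overlap was found for 15. A copy without a locus may still be transcribed, since assembly depends on depth and on how reads that match several places were used.

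The chr11 IAP-d-int copy was covered in full in 4 libraries and by no locus in the others. The loci had an FPKM of 1.89 in J1 DAXX-knockout 2i, 3.18 in TKO 2i, 4.46 in TKO DAXX-knockout regular and 12.9 in TKO DAXX-knockout 2i, the last a locus of 54222 bp. These are the 4 libraries in which the copy had at least 60 reads. The chr7 IAP-d-int copy was covered over at least 50% in J1 2i (FPKM 2.33), J1 DAXX-knockout 2i (2.2) and TKO 2i (2.24). In TKO regular and TKO DAXX-knockout regular it lay in loci of 62960 and 66382 bp, whose FPKM is not its own.

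The leading IAPEY3-int copy, chr12:19055759-19063072, was covered in full by a locus in J1 regular (FPKM 3.19), J1 DAXX-knockout 2i (0.773), TKO regular (4.14), TKO DAXX-knockout regular (1.94) and TKO DAXX-knockout 2i (2.56). In J1 DAXX-knockout regular, where it had the most reads, its locus covered 8.66% of it. The 3 equal-length copies, with similar read counts, had no locus over 50% in any library. The IAPLTR3-int copy chr17:22367701-22374490 lay inside loci of 197714 bp in J1 DAXX-knockout 2i and 169008 bp in TKO regular, so its FPKM there is not its own.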

How the data were processed

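RNA of 8 libraries was analysed. Cytoplasmic RNA was selected on oligo-dT beads and dUTP marked the second cDNA strand, per the labels' protocols. The authors' repeat table holds read counts and RPKM of each element, per the file headers. The other deposited files hold FPKM of unnamed loci that the authors assembled library by library. TopHat, Bowtie2 2.2.4, Cufflinks, Cuffdiff and mm9 appear, without roles, in the submitters' processing notes. The counter and the handling of reads matching several elements are not given in the sources used here.

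Library totals were recovered from counts and RPKM. Counts were summed per family, and families with a mean of 1 RPM (44 of 65) and elements with a mean of 0.1 RPKM were fitted with edgeR 4.0.16 (quasi-likelihood, R 4.3.3) for DNMT status, DAXX status and medium, then with 1 interaction at a time. Two-sided p-values were adjusted by Benjamini-Hochberg over the whole table, with a threshold of 0.05. Alternatives were TMM, median-ratio and L1 scaling, limma 3.58.1 on log2(RPM + 0.1), on log2(RPM + 1) or, for elements, on log2(RPKM + 0.1), DESeq2 1.42.0, other filters, the omission of each library and, added after seeing the data, the 4 pairs as blocks. Scripts were tested on simulated data. Tables were read with pandas 2.3.3.

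The families, lists and tests were chosen with earlier results of these data known. The text names all 4 families, the 3 leading copies of each, called copies (up to 5 a factor), the 3 most similar families and the ERVK list. Counting intervals are exact Poisson intervals at 95% and cover counting error only. Positions are as in the deposited table on mm9, which does not state whether they count from 0 or 1. No sequence is shown, because the genome at hand is of another build.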

Additional observations from a re-analysis of the deposited data

How the results depend on the processing

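The labels carry no replicate numbers to block on. With the 4 matched pairs as blocks, chosen after seeing the data, the families called were 5 for TKO, 2 for DAXX and 6 for 2i, and each of the 4 member families kept its side of the threshold for each factor. Of 216 comparisons of a family value with its alternatives, 185 kept direction and side of the threshold, 15 fell short of it, 6 newly passed and 10 reversed. Reversed log2 values were −0.12 for IAPEY3-int in TKO (TMM) and, for IAPEY3-int with DAXX knocked out, −0.0003 when J1 2i was left out, −0.09 for TKO DAXX-knockout 2i and −0.33 for J1 DAXX-knockout regular, within a range of −0.33 to 0.53 over the 8 omissions. IAPLTR3-int with DAXX knocked out gave 0.0081 (TMM), 0.15 (median ratio) and 0.30 (L1). Leaving out the copies of at least 0.1 RPKM was an alternative added after seeing the data. It gave IAPEY3-int −0.26 for DAXX and 0.58 for 2i, neither of which passed, and IAP-d-int −0.27 for DAXX. For TKO, IAPEY3-int newly passed under it at 1.71. That alternative drops 96.7% of the reads of IAPEY3-int by a cut on the same counts, so this pass is no support.

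Families called numbered 5 for TKO (TMM 2 higher and 2 lower, median ratio 4 and 2, L1 scaling 3 and 0, DESeq2 9, 2 to 7 without 1 library), 0 for DAXX (1 under TMM, median-ratio and L1 scaling and DESeq2, 0 to 3 without 1 library) and 7 for 2i (TMM and median ratio 2 higher and 0 lower, L1 scaling 3 and 1 or 4 in all, without the leading member copies 4, 0 to 9 without 1 library). Differences of the DAXX effect between TKO and J1 passed for 0 families (DESeq2 23, 0 to 24 without 1 library) and between media for 0 (TMM and median ratio 1, 0 to 1 without 1 library). For DNMT by medium the count was 0 throughout the omissions.

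Member copies called numbered 4 for TKO (TMM 2, a mean of 1 RPKM 0, no filter 8, limma 0, 2 to 6 without 1 library), 2 for DAXX (a mean of 1 RPKM 0, limma 0, 0 to 2 without 1 library) and 7 for 2i (TMM 0, median ratio 2, L1 2, a mean of 1 RPKM 4, no filter 11, limma 4, 0 to 10 without 1 library). In the main setting, 0.583% of all elements tested were called higher in TKO and 6.7% higher with DAXX knocked out. With 2i, 5.21% were called in either direction. The 4 TKO copies of the main setting reached the required mean only through TKO libraries. Assembled loci lay over 8 copies at 50% overlap and over 15 at any overlap. The stricter filter leaves fewer member copies to test; the cause of the other shifts was not tested. Low counts limit IAPEy-int, IAP-d-int and IAPLTR3-int, with at most 1000 reads per library.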
